A study of Drosophila melanogaster with 8 samples.

Results

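The cytoplasmic ribosomal protein genes were followed in flies labelled mutant, a knockout of anw per the design text, and in wildtype flies of Drosophila melanogaster. They were taken from the deposited expression tables as the protein-coding genes whose names start with RpL or RpS followed by a digit or by P, plus sta, the gene of a small-subunit protein. This gave 93 genes, 54 of the large and 39 of the small subunit, present in both the muscle table of 23983 entries and the whole-fly table of 17898 entries, with the same position and length in each. Of these, 70 have no copy suffix and 23 carry the suffix a, b or -like, which marks most duplicated copies and is treated apart. The 73 mitochondrial ribosomal protein genes of each table were left out.

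RNA was sequenced from mutant adult muscle, wildtype adult muscle, mutant adult whole flies and wildtype adult whole flies, with 2 libraries in each of the 4 groups. All flies were kept at 25 °C. The labels name neither sex, age, background strain nor allele. They also do not say whether the repeats are separate groups of flies, so a p-value here reflects only how far these libraries scatter, and that scatter may be technical. Each library held between 18580751 and 22210197 reads assigned to genes, and FPKM (reads per kilobase of gene, scaled to sequencing depth by the authors) was the deposited value. No entry of either table is named anw, so the genotype labels were not checked against RNA of the targeted gene.

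The ribosome joins a small subunit, which reads the message, to a large subunit, which forms the peptide bond, and most of its proteins are needed in equal number. In flies most of these proteins come from a single gene, and loss of 1 copy of many of them gives the slow-growing Minute phenotype with thin bristles. A few have duplicated genes, some of them used mainly in the germline.

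Markers of other cell types differed between libraries and are given here because they touch the values that follow. The 20 muscle markers summed to 20220 and 20660 FPKM in mutant muscle and to 17280 and 22350 FPKM in wildtype muscle. In whole flies they summed to 10180 and 9435 FPKM in the mutants, against 4601 and 3979 FPKM in the wildtypes, and 16 of the 20 were called higher. The 21 testis markers summed to 469 and 23.0 FPKM in mutant muscle and to 164 and 62.4 FPKM in wildtype muscle, and 19 of the 21 were highest in mutant 1. Of 18 ovarian germline markers, 13 were highest in wildtype 1 among the muscle libraries, but only 6 of the 18 passed the filter for testing there. Their sums were 92.9 and 84.8 FPKM in mutant muscle and 108.5 and 69.2 FPKM in wildtype muscle. In whole flies these ovarian markers summed to 937 and 830 FPKM in the mutants and to 602 and 676 FPKM in the wildtypes, with 6 of 17 tested called higher. Of 20 digestive enzymes of the midgut, 13 were called lower and 3 higher in mutant whole flies. Of 11 fat body markers, 5 were called higher and 2 lower there. Among all whole-fly entries tested, 9.94% were called higher and 10.8% lower. The 14 neuron markers summed to 165 and 217 FPKM in mutant muscle and to 157 and 168 FPKM in wildtype muscle, and 12 of them were highest in mutant 2. In whole flies 13 of the 14 had a difference below 0, 0 were called and 12 were highest in wildtype 1. In bulk tissue, fewer cells of a type and less RNA per cell cannot be told apart.

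All 70 genes without a suffix were abundant in every library. In muscle their lowest, median and highest levels were 188, 777 and 1652 FPKM in mutant 1 and 230, 1061 and 2202 FPKM in mutant 2. In the muscle wildtypes the same levels were 344, 1052 and 2595 FPKM, and 276, 914 and 2041 FPKM. The median gene was therefore lowest in mutant 1 and highest in mutant 2, with both wildtypes between them, but mutant 2 and wildtype 1 were close. The summed FPKM of the 70 genes was higher in wildtype 1 (79247) than in mutant 2 (78718). In whole flies the median gene stood at 1332 and 1305 FPKM in the mutants, against 1382 and 1334 FPKM in the wildtypes, a narrower spread than in muscle.

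The genes of the acidic stalk, which recruits translation factors to the large subunit, were among the most abundant. RpLP2 had 1652 and 2202 FPKM in mutant muscle, against 2595 and 2041 FPKM in wildtype muscle, and RpLP1 had 1475 and 2090 FPKM against 2021 and 1641 FPKM. RpL41, which encodes the smallest protein of the ribosome, completed the 3 highest in wildtype muscle with 1315 and 1764 FPKM in the mutants and 2217 and 1458 FPKM in the wildtypes. RpL38, RpL5 and RpS9 were lowest there. RpL5, which carries the 5S RNA into the large subunit, had 309 and 383 FPKM in mutant muscle and 403 and 355 FPKM in wildtype muscle. In whole flies RpL39, RpS21 and RpL28 were lowest and RpL23, RpL41 and RpLP2 highest. RpL39 stood at 427 and 447 FPKM in mutant flies and at 330 and 420 FPKM in wildtype flies.

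The share of all gene-assigned reads that fell on the 93 genes was 6.48% and 7.17% in mutant muscle and 8.08% and 7.04% in wildtype muscle. The groups overlapped, with an exact two-sided permutation p of 0.667 (n = 2 each). In whole flies the share was 10.66% and 10.15% in the mutants and 10.75% and 11.14% in the wildtypes. The mutants lay below the wildtypes with an exact p of 0.333, which is the smallest that 2 against 2 can give. Reads of the mitochondrial genome were 16.7% and 25.1% of all reads in mutant muscle and 15.6% and 14.4% in wildtype muscle. In whole flies they were 11.1% and 9.30% in the mutants and 6.90% and 5.41% in the wildtypes. With these reads left out of the total, a choice made after seeing the data, the difference in share (mutant minus wildtype) was -0.218 percentage points in muscle, against -0.734 with them, and -0.0705 in whole flies, against -0.541 with them.

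No ribosomal protein gene was called changed in mutant muscle. The test was limma on log2(FPKM + 1), fitted in each tissue to all entries with at least 1 FPKM in at least 2 of 4 libraries, at an adjusted p of 0.05. It called 0.0% of the 10079 muscle entries, and 0 of the 70 genes and 0 of the 19 suffixed copies that passed the filter, by limma-voom on recovered reads as well. At an unadjusted p under 0.05 there were 1408 entries (14.0%), among them 2 of the 70 genes and 2 of the 19 copies. Each difference is that of the mutant group over the wildtype group, in units of log2(FPKM + 1).

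The fitted difference was below 0 for 58 of the 70 genes and above 0 for 12, with a median of -0.11 beside 0.02 over all entries tested. The small subunit's 26 genes had a median of -0.12 and the large subunit's 44 genes one of -0.10. This side of 0 depended on which libraries were kept. Mutant 1 lay below both wildtypes for 68 of the 70 genes, while mutant 2 lay below both for 7 and above both for 35. The median was 0.12 without mutant 1 and -0.33 without mutant 2. It was also positive with quantile scaling (0.12), with the trend on gene length removed (0.09) and without wildtype 1 (0.01). Mutant 1 was the library with the highest sum of testis markers. Mutant 2 had the largest mitochondrial share and the highest sum of neuron markers. The authors' totals, to which FPKM is scaled, were 1.089 times the summed gene reads in mutant 1 and 0.884 times in mutant 2. In wildtypes 1 and 2 they were 1.001 and 1.028 times these sums. A larger total gives a lower FPKM. How much each of these adds to the muscle differences was not tested.

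**Figure D1:**
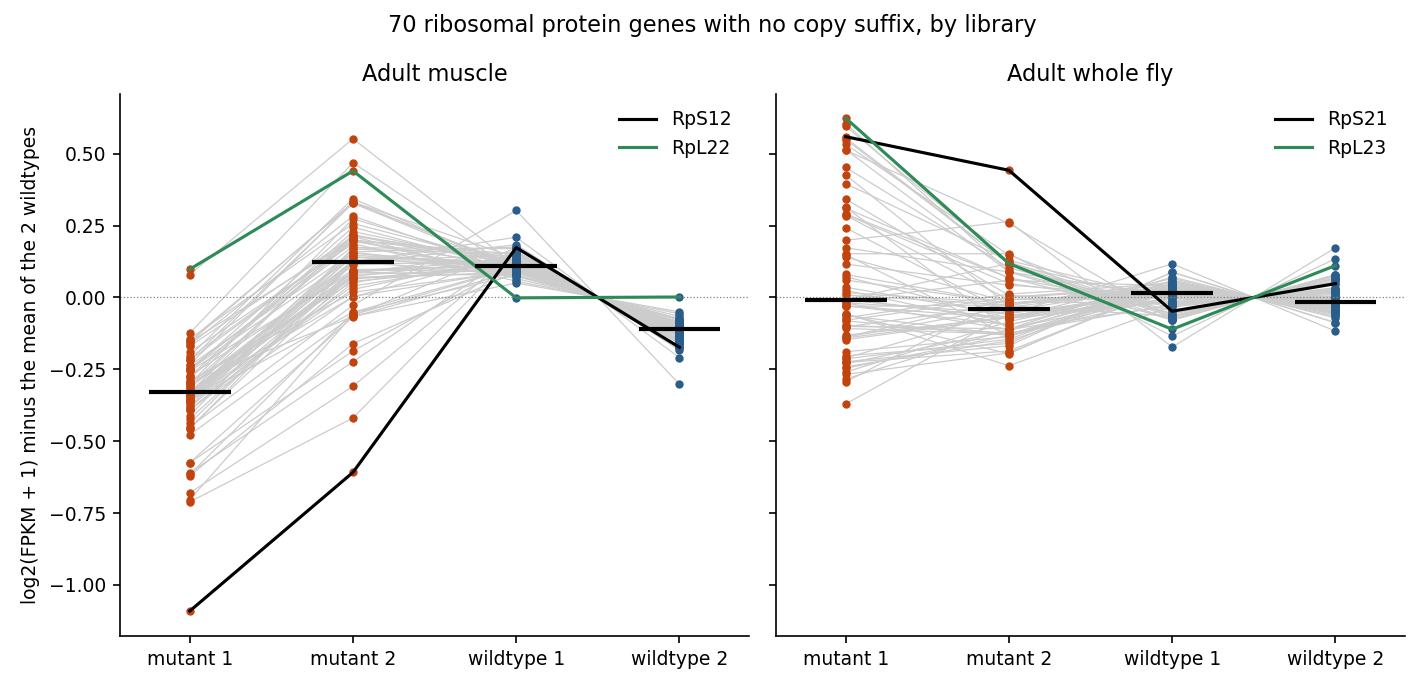
Each point is 1 of the 70 genes in 1 library, as log2(FPKM + 1) minus the mean of the 2 wildtypes of that tissue, with grey lines joining a gene across libraries, black bars at the library median and 2 genes drawn as thick lines per panel. In muscle mutant 1 lies below both wildtypes for 68 of the 70 genes (median -0.33), and mutant 2 lies above both for 35 and below both for 7 (median 0.12), whereas in whole flies the medians stay near 0 and the genes fan out in mutant 1.

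Both mutants lay below both wildtypes for 7 of the 70 genes in muscle, where 25.3% of all entries did so. They lay above for RpL22 alone, where 23.6% of all entries did so. RpS3A, a small-subunit protein, had 625 and 732 FPKM in mutant muscle, against 793 and 740 FPKM in wildtype muscle. The 7 were RpS12, RpL38, RpL23, RpS9, RpS4, RpL36 and RpS3A, 4 of the small and 3 of the large subunit.

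RpS12 had the lowest difference of the 70 genes in muscle. RpS12, a small-subunit protein known in flies for its part in the elimination of slow-growing ribosomal protein mutant cells by their neighbours, had 631 and 882 FPKM in mutant muscle, against 1517 and 1192 FPKM in wildtype muscle. Both mutants were low and the groups were well apart. The difference was -0.85 ± 0.24 (SE), with an unadjusted p of 0.0265 and an adjusted p of 0.32 by limma. In whole flies RpS12 stood at 2454 and 1828 FPKM in the mutants and at 1936 and 2014 FPKM in the wildtypes, where the groups overlapped.

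RpL38 had 188 and 230 FPKM in mutant muscle, against 344 and 276 FPKM in wildtype muscle, a difference of -0.56 ± 0.19 (SE, adjusted p = 0.35 by limma). RpL23, a large-subunit protein, had 1117 and 1445 FPKM in the mutants and 1999 and 1603 FPKM in the wildtypes, a difference of -0.49 ± 0.21. RpS9, a small-subunit protein, had 252 and 329 FPKM in the mutants and 430 and 344 FPKM in the wildtypes, a difference of -0.42 ± 0.21. In each of these genes mutant 1 was the lowest library and wildtype 1 the highest. RpS4 had 842 and 1159 FPKM in mutant muscle and 1378 and 1218 FPKM in wildtype muscle, a difference of -0.39 ± 0.21.

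At the other end stood RpS27A, RpL22, RpL28, RpL7 and RpL3. RpS27A, made as a fusion with ubiquitin, had 1478 and 2051 FPKM in mutant muscle, against 1509 and 1296 FPKM in wildtype muscle, and its difference of 0.32 ± 0.22 came with overlapping groups. RpL22, which carries a long fly-specific extension, had 557 and 706 FPKM in the mutants and 519 and 521 FPKM in the wildtypes, without overlap, at 0.27 ± 0.16. RpL28 (0.17), RpL7 (0.09) and RpL3 (0.09) had overlapping groups, and each of these differences was below 0 when mutant 2 was left out.

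Because the family shifts together between muscle libraries, each gene was also set against the library median of the 70 genes, a scale added after seeing the data. On it 60 of the 70 genes differed between the genotypes by at most 0.25 in muscle, and 58 did in whole flies. RpS12 stood at -0.30 and -0.27 relative to the family in mutant muscle and at 0.53 and 0.38 in wildtype muscle, a difference of -0.74 and the lowest of the 70. RpS27A stood at 0.93 and 0.95 in mutant muscle and at 0.52 and 0.50 in wildtype muscle, a difference of 0.43 and the highest. On this scale both mutants lay above both wildtypes in muscle for 23 of the 70 genes and below for 16. The share of all entries was not computed on this scale. On FPKM itself 23.6% of all muscle entries lay above and 25.3% below. Nothing particular to these genes is read from the counts. RpS4 stood at 0.12 and 0.13 in the mutants and at 0.39 and 0.41 in the wildtypes. RpL22 stood at -0.48 and -0.59 in the mutants and at -1.02 and -0.81 in the wildtypes.

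**Figure D2:**
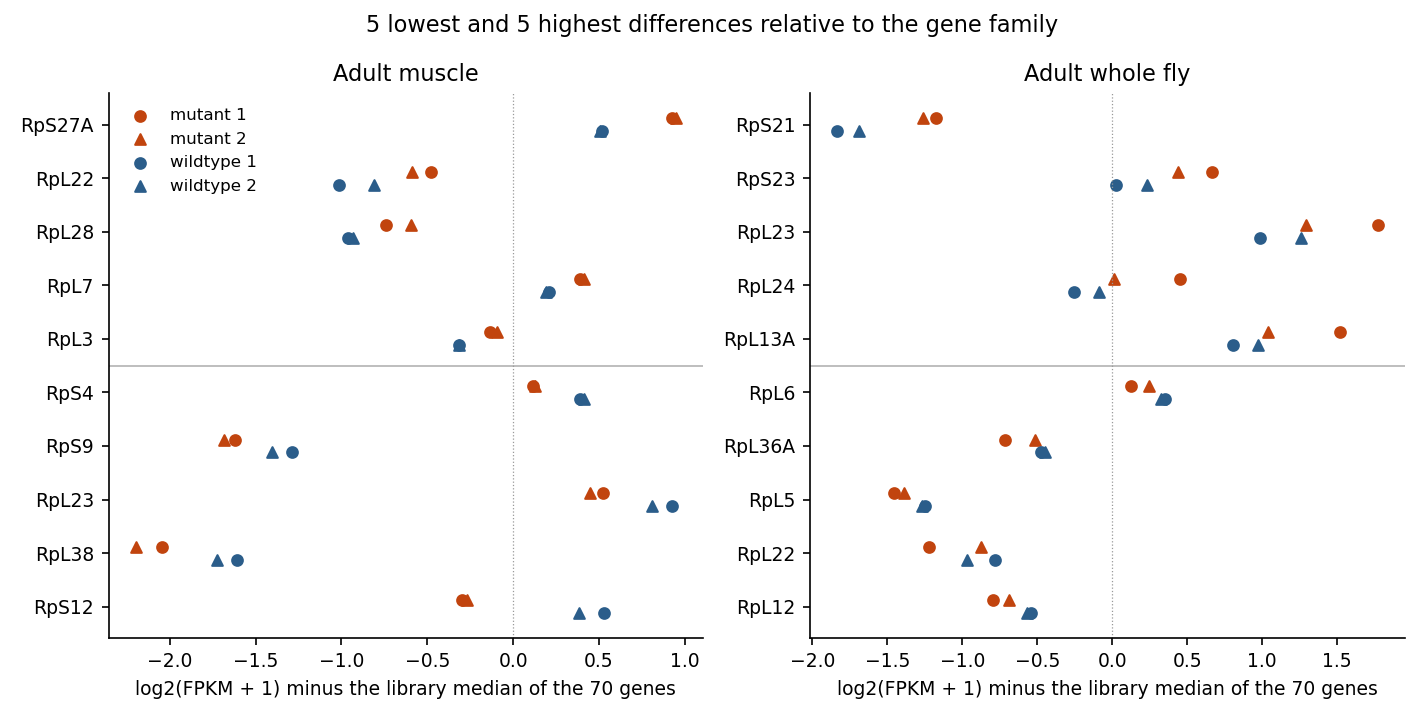
For the 5 lowest (below the line) and 5 highest (above the line) differences of each tissue, points give log2(FPKM + 1) minus the library median of the 70 genes, mutants in red above wildtypes in blue, circles for replicate 1 and triangles for replicate 2. The genes shown were picked for their differences, and in muscle RpS12 (-0.74) and RpS27A (0.43) are at the ends. In whole flies RpS21 (0.54) is the highest.

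RpS12 and RpS4 are neighbours. RpS12 (FBgn0286213) lies on chromosome 3L at 13023352 to 13024762 and RpS4 (FBgn0011284) at 13041756 to 13044234 of release 6 of the fly genome, both on the plus strand, with 16994 bases between them. Most other genes around them were also low in mutant muscle. Of the 13 other entries tested within 50 kb of RpS12, all 13 had a difference below 0, with a median of -0.81. Within 300 kb it was 45 of 47, with a median of -0.98. Of the 65 family genes with at least 5 tested neighbours within 50 kb, RpS12 (-0.81) and RpS4 (-0.70) had the lowest neighbour medians. RpS27 followed at -0.31, and the highest was 0.69. The midpoints of RpS12 and RpS4 lie 18.9 kb apart, so their windows overlap and are not separate observations. Several entries near RpS12 were close to the floor, such as Cul6 and ste14, and a snoRNA gene counted there lies inside RpS4. The windows were chosen after the values were seen.

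AdenoK, the gene of adenosine kinase beside RpS12, had 25.2 and 24.6 FPKM in mutant muscle, against 106 and 79.3 FPKM in wildtype muscle. The gene of the mitochondrial ribosomal protein mRpL20 had 8.86 and 11.6 FPKM in the mutants and 29.1 and 30.6 FPKM in the wildtypes. These neighbours differed by -1.84 ± 0.18 and -1.47 ± 0.16, further from 0 than RpS12. In whole flies the 17 entries tested within 50 kb of RpS12 had a median of 0.21, and 5 of them were below 0. Within 300 kb 36 of 61 were below 0 in whole flies, with a median of -0.11.

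**Figure D3:**
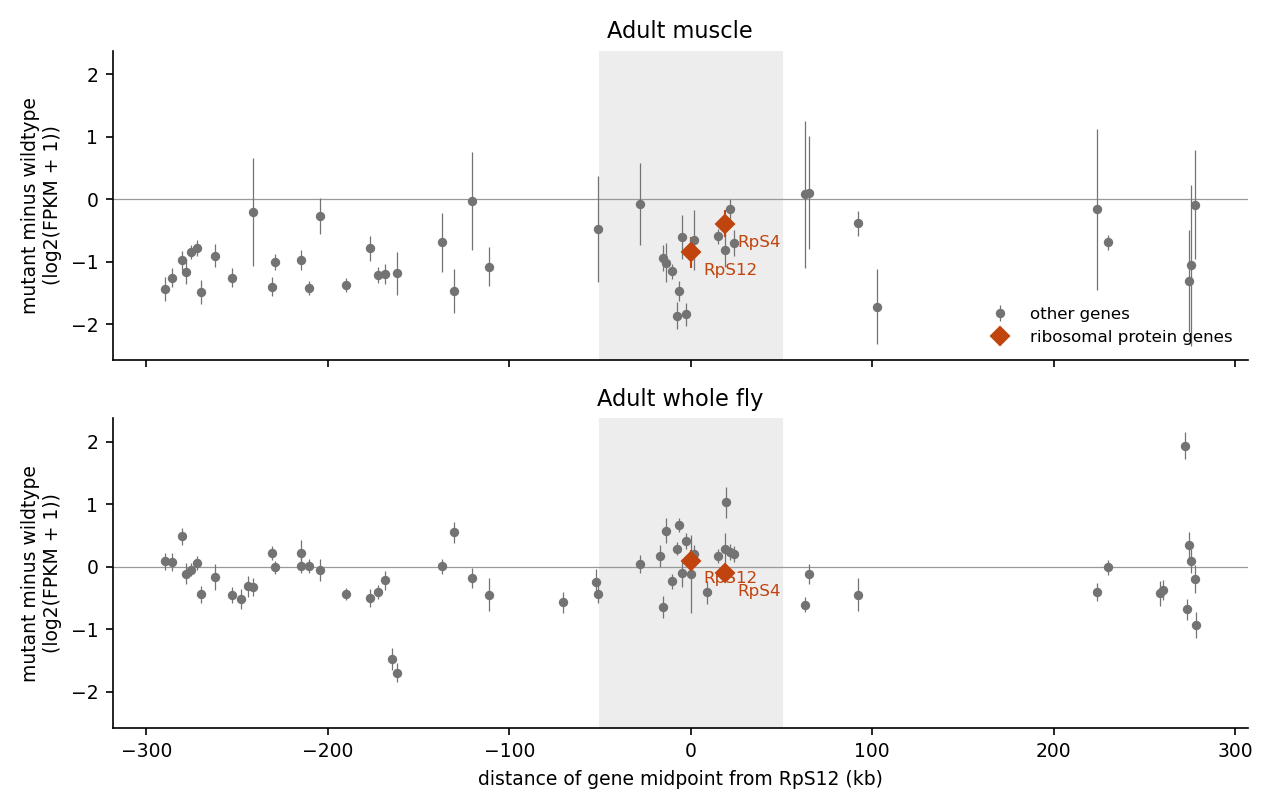
The difference between mutant and wildtype on the log2(FPKM + 1) scale (bars are SE) is plotted against the distance of each gene's midpoint from RpS12 in kb, in muscle above and whole flies below, with the 50 kb window shaded. In muscle RpS12 and RpS4 (red diamonds) lie among genes that are almost all below 0, and in whole flies the same stretch lies on both sides of 0.

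In whole flies 1 of the 70 genes was called, where the same limma test called 20.8% of 11419 entries. Of the suffixed copies, 1 of the 22 tested was called. Both were higher in the mutants, as were 9.94% of all entries (10.8% were lower). At an unadjusted p under 0.05 there were 2 of the 70 genes, against 36.4% of all entries. The median difference of the 70 genes was -0.03, beside 0.02 over all entries. The direction of the calls depended on the scaling. With quantile scaling, 0 of the 70 were called higher and 2 lower, RpL12 and RpL5, with a family median of -0.16. That scaling called 20.5% of all entries. With limma-voom on recovered reads 1 was higher and 4 lower, RpL12, RpL5, RpL6 and RpS24, and the family median was -0.16, while the median of all entries was -0.10. Among all entries limma-voom called 897 higher and 2004 lower, against 1135 higher and 1237 lower by the test on log2(FPKM + 1).

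RpS21 was the gene without a suffix that rose. RpS21 (FBgn0015521, chromosome 2L at 2856070 to 2857029), a protein of the small subunit, had 589 and 543 FPKM in mutant flies, against 387 and 413 FPKM in wildtype flies. Both mutants were high and close together. The difference was 0.50 ± 0.11 (SE), with an adjusted p of 0.0176 by limma. The call was lost with quantile scaling (0.26, adjusted p = 0.0963 by limma), without wildtype 1 (0.45, adjusted p = 0.17) and without wildtype 2 (0.55, adjusted p = 0.0807). It was also lost when the spread was shared with the muscle libraries (adjusted p = 0.22). In muscle RpS21 stood at 303 and 454 FPKM in the mutants and at 453 and 381 FPKM in the wildtypes.

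In whole flies both mutants lay above both wildtypes for 17 of the 70 genes, where 34.5% of all entries did so, and below for 25, where 31.5% did so. Nothing particular to these genes is read from the counts. The 17 were 6 small-subunit and 11 large-subunit genes, and the 25 were 13 and 12. Among the 17, mutant 1 was above mutant 2 in 16, the exception being RpL39.

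RpS23, whose product sits at the decoding centre, had 2117 and 1774 FPKM in mutant flies and 1405 and 1568 FPKM in wildtype flies, a difference of 0.38 ± 0.14 (SE, adjusted p = 0.0993 by limma). RpL23 had 4553 and 3207 FPKM in the mutants and 2737 and 3191 FPKM in the wildtypes, where mutant 2 barely exceeded wildtype 2. RpL24 had 1822 and 1314 FPKM in the mutants and 1159 and 1255 FPKM in the wildtypes. For RpL23, RpL24 and RpL13A the gap came mainly from mutant 1. RpL13A had 3831 and 2682 FPKM in the mutants, against 2422 and 2621 FPKM in the wildtypes. RpLP2, the stalk protein, stood at 5666 and 4184 FPKM in the mutants, against 3810 and 3904 FPKM in the wildtypes. RpLP2, RpL23, RpL13A, RpS2 and RpL38 were among the genes called higher without mutant 2 but not without mutant 1. More of all entries were also called higher without mutant 2, and each of these fits rests on 1 mutant library. Nothing particular to these genes is read from these calls.

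The lowest differences were small. RpL12, which forms the base of the stalk, had 768 and 809 FPKM in mutant flies and 951 and 898 FPKM in wildtype flies, a difference of -0.23 ± 0.11. RpL5 had 485 and 499 FPKM in the mutants, against 582 and 554 FPKM in the wildtypes. RpL6 had 1455 and 1548 FPKM in the mutants, against 1766 and 1674 FPKM in the wildtypes. In each of these the mutants were below both wildtypes, and so they were for RpL36A (-0.20). RpL22 (-0.21) had 572 and 710 FPKM in the mutants and 802 and 682 FPKM in the wildtypes, which overlapped.

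The muscle and whole-fly comparisons share no library. Across the 70 genes the whole-fly difference and the muscle difference had a Pearson r of -0.474 and a Spearman rho of -0.487, given as a description, since genes are not independent replicates. The whole-fly difference also went with the gap between the 2 muscle wildtypes, replicate 1 minus replicate 2, with r = 0.557 and rho = 0.617, although these libraries have the same genotype label. Of the 7 genes with both mutants low in muscle, 4 had both mutants high in whole flies and 2 had both low.

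**Figure D4:**
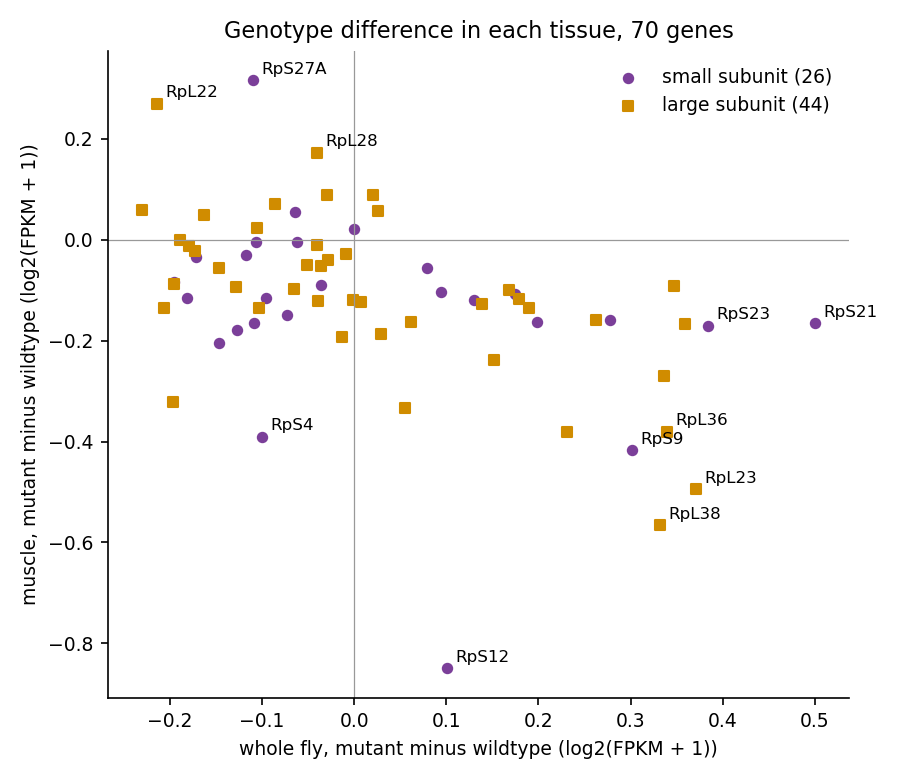
Each point is 1 of the 70 genes, with the whole-fly difference (mutant minus wildtype, log2(FPKM + 1)) on the horizontal axis and the muscle difference on the vertical axis, circles for the 26 small-subunit and squares for the 44 large-subunit genes. RpL38, RpL23, RpS9 and RpL36 lie at the lower right, low in mutant muscle and high in mutant whole flies, and RpS12 lies lowest.

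Whether the genotype effect differed between muscle and whole flies was tested as the interaction in a limma fit to all 8 libraries and 9476 genes. It called 551 genes (5.81%) and 0 of the 70, of which 4 had an unadjusted p under 0.05, against 27.3% of all genes. The smallest p among the 70 belonged to RpL38 (muscle minus whole fly -0.90 ± 0.28, adjusted p = 0.117 by limma), RpS12 (-0.95 ± 0.33, adjusted p = 0.137), RpL23 (-0.86 ± 0.33, adjusted p = 0.167), RpL36 (-0.72 ± 0.28, adjusted p = 0.169) and RpS9 (-0.72 ± 0.30, adjusted p = 0.189). RpL36, a large-subunit protein, had 661 and 866 FPKM in mutant muscle and 1071 and 907 FPKM in wildtype muscle. In whole flies it had 2207 and 1689 FPKM in the mutants and 1459 and 1595 FPKM in the wildtypes.

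Of the 19 suffixed copies in that fit 1 was called, RpS15Ab, a share close to that of all genes. It is the minor copy of RpS15A and had 40.5 and 36.2 FPKM in mutant muscle, against 54.5 and 53.6 FPKM in wildtype muscle. In whole flies it had 55.8 and 53.5 FPKM in the mutants, against 46.3 and 45.7 FPKM in the wildtypes. The mutants were thus low in muscle and high in whole flies, without overlap in either. The muscle difference minus the whole-fly difference was -0.73 ± 0.12 (SE), with an adjusted p of 0.0311 by limma. The call was lost with quantile scaling (adjusted p = 0.0658 by limma), limma-voom (0.137) and removal of the length trend (0.0717). It was also lost whenever the same replicate of 1 genotype was left out of both tissues, which leaves 1 library in a group. RpS15Aa, the major copy, stood at 625 and 852 FPKM in mutant muscle and at 832 and 730 FPKM in wildtype muscle. In whole flies RpS15Aa had 1285 and 1129 FPKM in the mutants and 1197 and 1096 FPKM in the wildtypes.

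Among the duplicated genes, RpL34a kept close to a fixed proportion of its family in both tissues, and RpS14b did so in muscle only. RpL34a gave 16.4% and 16.4% of the RpL34 FPKM in mutant muscle and 17.2% and 17.0% in wildtype muscle. In whole flies it gave 14.8% and 16.2% in the mutants and 16.3% and 15.7% in the wildtypes. RpS14b gave 29.6% and 28.1% of the RpS14 FPKM in mutant muscle and 30.7% and 30.2% in wildtype muscle. In whole flies RpS14b gave 35.0% and 32.4% in the mutants, against 28.9% and 29.7% in the wildtypes, with RpS14a at 656 and 635 FPKM in the mutants and 738 and 679 FPKM in the wildtypes. The log2 ratio of RpS14b to RpS14a was 0.29 higher in mutant flies, without overlap, at an exact permutation p of 0.333. RpS14a and RpS14b lie in tandem on the X chromosome and resemble each other closely, so the split of reads between them is uncertain, as it is for the other close pairs.

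RpL24-like, whose yeast counterpart is an assembly factor of the large subunit rather than a copy in the ribosome, had 112 and 141 FPKM in mutant muscle, against 186 and 190 FPKM in wildtype muscle. Both mutants were low, and the difference was -0.58 ± 0.15 (SE, unadjusted p = 0.0215, adjusted p = 0.312 by limma). In whole flies it had 349 and 269 FPKM in the mutants and 259 and 286 FPKM in the wildtypes. RpLP0-like, also the counterpart of a yeast assembly factor, had 9.33 and 10.2 FPKM in mutant muscle and 11.0 and 10.3 FPKM in wildtype muscle. In whole flies RpLP0-like had 28.9 and 34.8 FPKM in the mutants and 31.8 and 30.7 FPKM in the wildtypes.

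**Figure D5:**
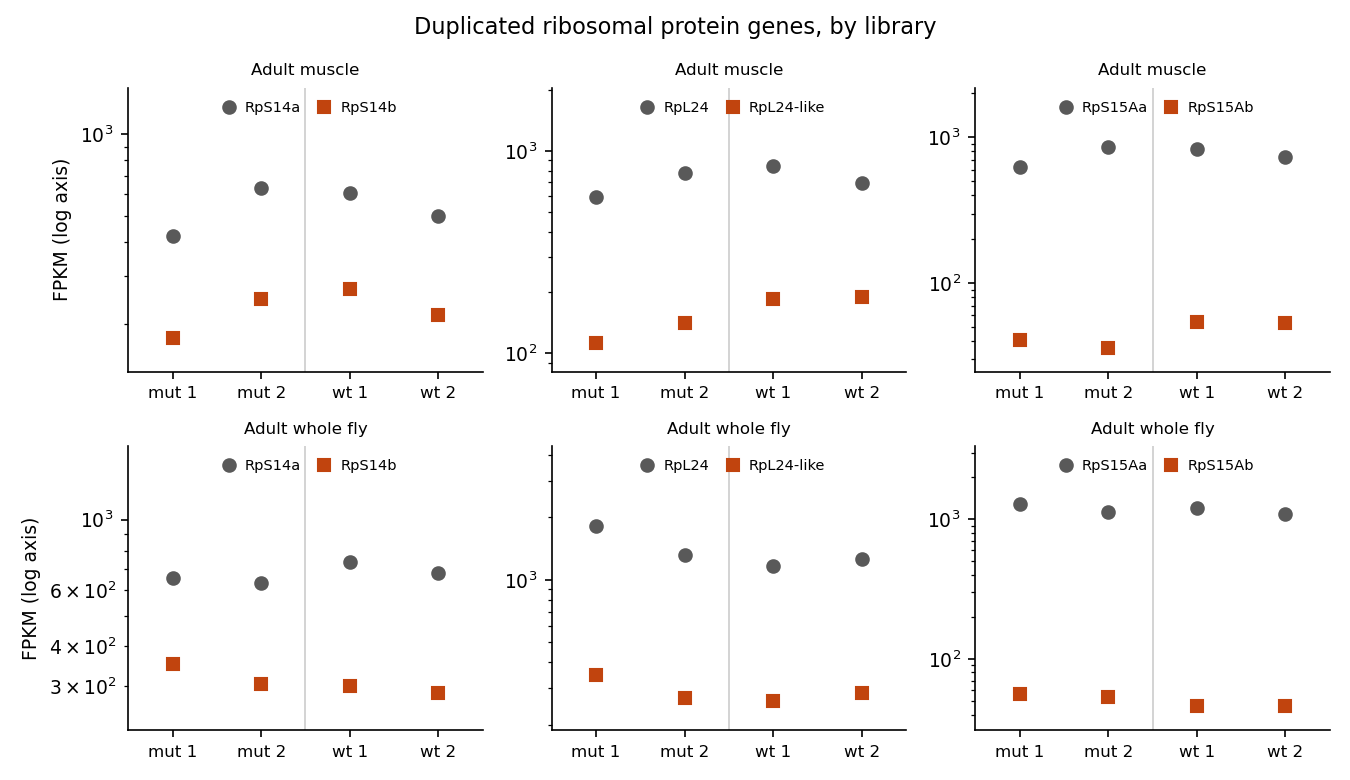
FPKM on a log axis for 3 gene pairs in muscle (upper panels) and whole flies (lower panels), mutant libraries left of the line and wildtype libraries right of it, the major muscle copy as grey circles and its partner as red squares. RpL24-like and RpS15Ab are low in both mutant muscle libraries.

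The rare copies were near the floor in muscle. RpL10Aa had 7.75 and 0 FPKM in mutant muscle and 2.39 and 0.248 FPKM in wildtype muscle. RpS19b, a copy enriched in the germline, had 4.52 and 0.247 FPKM in the mutants and 0.913 and 1.32 FPKM in the wildtypes. RpS10a had 3.03 and 0.181 FPKM in the mutants and 1.24 and 0.886 FPKM in the wildtypes. Like RpL37b, RpL22-like and RpS28-like, these were highest in mutant 1, the library in which 19 of the 21 testis markers were highest, and the part of those markers was not tested. Mutant 2, in which 7 of the 21 testis markers were at 0, held 0 reads of RpL10Aa, RpL37b, RpL22-like, RpS28-like and RpS28a. RpS28a held 3 reads in mutant 1, 1 in wildtype 1 and 3 in wildtype 2. RpL7-like was listed at 0 in all 8 libraries.

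In whole flies the rare copies other than RpL7-like had reads in every library. RpL22-like had 4.42 and 3.60 FPKM in the mutants, against 5.55 and 6.51 FPKM in the wildtypes, a difference of -0.49 ± 0.15 (SE, adjusted p = 0.0616 by limma). RpL10Aa had 8.17 and 11.97 FPKM in the mutants and 11.6 and 11.6 FPKM in the wildtypes. RpS19b had 10.3 and 10.8 FPKM in the mutants and 9.43 and 11.1 FPKM in the wildtypes. The groups of both overlapped, as did those of RpL37b, RpS10a, RpS28a and RpS28-like, which were at most 6.94 FPKM in any library.

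The remaining suffixed genes are the major copies of their families. RpL37a had 646 and 692 FPKM in mutant whole flies, against 818 and 761 FPKM in wildtype whole flies, a difference of -0.24 ± 0.11 (adjusted p = 0.17 by limma). RpL10Ab had 2062 and 1699 FPKM in mutant flies, against 1572 and 1645 FPKM in wildtype flies, a difference of 0.22 ± 0.14. RpS10b, RpS19a, RpS28b and RpL34b had overlapping groups in whole flies, with differences between -0.06 and 0.13. In muscle these 6 genes had overlapping groups, with differences between -0.29 and 0.08.

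The regulation of ribosome supply was followed through lists chosen with earlier results of these data known. None of the 32 genes of ribosome biogenesis and RNA polymerase I was called in muscle, where 0.0% of all entries were. Of these genes, 28 had a difference below 0 there, and their median was -0.19, beside 0.02 over all entries. Of the 32, 25 were highest in wildtype 1, as were 15 of 26 translation initiation factors and 5 of 7 elongation factors, against 4 of 20 genes of the target of rapamycin pathway. Of the 18 ovarian germline markers, 13 were highest in that library, but only 6 of the 18 passed the filter in muscle. The share of all entries highest in wildtype 1 was not computed, and the part of that library in the shift was not tested. NHP2, a core protein of the particles that guide pseudouridylation of ribosomal RNA, had 9.24 and 11.2 FPKM in mutant muscle, against 26.2 and 21.3 FPKM in wildtype muscle (-1.14 ± 0.17, adjusted p = 0.238 by limma). In whole flies 1 of the 32 was higher and 2 were lower, where 9.94% and 10.8% of all entries were. Polr1E, a subunit of RNA polymerase I, had 49.1 and 32.6 FPKM in mutant flies, against 20.1 and 23.2 FPKM in wildtype flies (adjusted p = 0.0184 by limma). CG7637, the fly Nop10, fell to 17.8 and 17.1 FPKM in mutant flies, against 24.2 and 26.1 FPKM in wildtype flies. Nop17l also fell, to 24.4 and 26.6 FPKM, against 34.7 and 33.3 FPKM.

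Among 25 initiation factors tested, 0 were called in muscle, where 0.0% of all entries were and the median of the factors was -0.06. Of the 25, 1 was higher in whole flies, where their median was 0.07 and 9.94% of all entries were higher. The gene with the lowest muscle difference was eIF2beta, a subunit of the factor that brings the initiator tRNA, at 29.3 and 30.5 FPKM in mutants and 106 and 88.7 FPKM in wildtypes (-1.66 ± 0.13, adjusted p = 0.167 by limma). The gene that rose in whole flies was eIF3k, at 178 and 160 FPKM in mutants, against 128 and 128 FPKM in wildtypes. Of 7 elongation factors 0 were called in muscle and 1, eEF1alpha2, rose in whole flies, at 74.0 and 77.3 FPKM in mutants and 53.8 and 49.5 FPKM in wildtypes.

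None of 11 regulators of ribosomal protein gene transcription was called in either tissue, where 0.0% of all muscle entries and 20.8% of all whole-fly entries were called. Trf2, which flies use to transcribe these genes from their TCT promoters, had 5.35 and 6.542 FPKM in mutant muscle and 3.81 and 3.98 FPKM in wildtype muscle (0.50 ± 0.15, adjusted p = 0.321 by limma). M1BP, which recruits Trf2 to these promoters, had 7.06 and 8.55 FPKM in the mutants and 8.22 and 8.94 FPKM in the wildtypes. None of 20 genes of the target of rapamycin pathway was called in either tissue, beside the same shares of all entries. Their medians were 0.22 in muscle and 0.03 in whole flies, beside 0.02 over all entries in each tissue. Thor, the repressor of cap-dependent initiation, had 208 and 239 FPKM in mutant whole flies and 306 and 270 FPKM in wildtype whole flies (-0.36 ± 0.12, adjusted p = 0.07 by limma).

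Of 7 genes tested that are known to respond to the loss of a ribosomal protein gene, 1 rose and 1 fell in mutant whole flies, where 20.8% of all entries were called. Xrp1, the transcription factor induced in such cells, had 163 and 171 FPKM in mutant muscle and 88.6 and 143 FPKM in wildtype muscle (0.56 ± 0.27, adjusted p = 0.441 by limma). In whole flies Xrp1 had 85.4 and 107 FPKM in the mutants and 134 and 124 FPKM in the wildtypes (-0.43 ± 0.13, adjusted p = 0.0539). Irbp18, its partner, rose in whole flies, at 24.8 and 22.9 FPKM in mutants, against 16.9 and 16.3 FPKM in wildtypes, and Gadd45 fell, at 13.2 and 14.6 FPKM against 30.3 and 27.8 FPKM. None of the 6 genes tested in muscle was called, where 0.0% of all entries were. Their muscle median was 0.44, beside 0.02 over all entries, with 4 above 0 and 2 below. Gadd45 had the largest of these differences, at 26.8 and 53.3 FPKM in mutant muscle and 17.8 and 24.2 FPKM in wildtype muscle (0.83 ± 0.39, adjusted p = 0.439 by limma).

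Of the 70 genes, 27 hold a snoRNA gene, whose RNA guides the modification of ribosomal RNA. The snoRNA hosts had a median difference of -0.12 in muscle and -0.04 in whole flies, and the other 43 genes had -0.11 and -0.03. In addition 17 of the 70 overlap another protein-coding gene, RpL23 and RpL24 among them, and how the authors' counting treated strand is not given in the sources used here, so reads of such a gene and of its partner may not be separated.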

How the data were processed

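The authors deposited FPKM per gene for 4 muscle and 4 whole-fly libraries; how reads were aligned and counted, and whether by strand, was not given in the sources used here. Per the labels' protocols, 1.3 µg of total RNA entered each mRNA library. Per the submitters' processing notes the build is a mouse build, but the entries carry fly coordinates of release 6, and the members match annotation release 115. The whole-fly columns name genotype and repeat only, and were assigned to whole flies because the other table names all 4 muscle samples. FPKM times length was a whole multiple of 1 step per library for 100% of values (tolerance 0.1 reads), which gave reads per library, while the authors' totals were 0.884 to 1.089 times these sums.

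The test was limma 3.58.1 in R 4.3.3 on log2(FPKM + 1), its variance prior following the mean level, for entries with at least 1 FPKM in 2 of 4 libraries, Benjamini-Hochberg adjusted at 0.05, each tissue alone. The scale understates changes of weakly expressed genes. The script was tested on simulated data, with 100 entries changed 2-fold and 100 changed 4-fold per tissue. It recovered 86% and 100% of these in muscle, and 96% and 100% in whole flies. It also called 29 unchanged entries in muscle and 24 in whole flies, a larger part of the calls than the threshold of 0.05 aims at. The simulated reads had the same spread setting for all entries and no shift common to a library. The rates therefore do not show what would be recovered from the real muscle libraries, where the test called 0 of 10079 entries. Members, lists and tests were chosen with earlier results of these data known. Named genes were the suffixed copies, except 1 pair not reported here, the 5 highest and 5 lowest differences per tissue, called members, the 5 smallest interaction p, and the 3 highest and 3 lowest levels. Of other lists, called members or up to 2 with the largest difference were named, and RpS2, RpS3A, RpS24, RpS27, AdenoK, mRpL20, M1BP and Xrp1 were chosen after their values were seen. Alternatives were pseudocount 0.1, a minimum of 5 FPKM, no filter, quantile scaling, limma-voom on recovered reads, protein-coding entries only, removal of the length trend, a replicate block, a spread shared between tissues, and leaving out each library. Leaving out mitochondrial reads, the family-relative scale and a crossed block were added after seeing the data.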

Additional observations from a re-analysis of the deposited data

Results flagged for a closer look

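RpS15Ab, the minor copy of RpS15A, is singled out because the effect of the genotype differed between the tissues by the interaction test in limma. The muscle difference minus the whole-fly difference was -0.73 on the log2(FPKM + 1) scale (adjusted p = 0.0311). The mutants lay below the wildtypes in muscle and above them in whole flies, in 2 of 2 mutant libraries each time. By limma the adjusted p was 0.0658 with quantile scaling, 0.137 with limma-voom, 0.0717 with the length trend removed and 0.136 with a replicate block. The call was also lost whenever the same replicate of 1 genotype was left out of both tissues, which leaves 1 library in a group. The 1 call among 19 suffixed copies stands beside 5.81% of all genes called.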

How the results depend on the processing

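In muscle, 0 of the 70 genes were called under the alternatives run. All entries called numbered 2 with a minimum of 5 FPKM, 2 with quantile scaling, 2 with protein-coding entries only, 2 with the length trend removed, 265 with the spread shared between tissues (and 1 suffixed copy, RpS15Ab), and 0 to 12 when 1 library was left out. The muscle median ran from -0.33 to 0.124 over the libraries left out. The muscle share of reads was -0.0636 points with protein-coding entries only and -1.25 to -0.217 with 1 library left out. RpL28 ran from -0.124 to 0.468, RpL3 from -0.156 (and -0.0146 without wildtype 2) to 0.331, and RpL7 from -0.15 (and -0.021 without wildtype 2) to 0.327. In whole flies, all entries called numbered 546 with the shared spread and 1409 to 3213 with 1 library left out. Of the 70 genes, 2 were called with quantile scaling, 5 with limma-voom, 0 with the shared spread and 0 to 10 with 1 library left out. Of the suffixed copies, 0 were called with no filter, 2 with quantile scaling, 3 with limma-voom, 2 with the length trend removed, 0 with the shared spread and 0 to 4 with 1 library left out. The whole-fly median was -0.158 with quantile scaling, -0.156 with limma-voom and -0.057 to -0.0055 with 1 library left out. The share of reads was -0.0705 points without mitochondrial reads and -0.796 to -0.286 with 1 library left out. RpL24-like was -0.00407 with quantile scaling and -0.0148 to 0.355 with 1 library left out. The interaction called 1 of the 70 with quantile scaling. For the interaction, leaving out a library meant leaving the same replicate of 1 genotype out of both tissues. The causes were not tested. Replicate numbers were not shown to pair the libraries (correlation of same-numbered deviations 0.389 in muscle and -0.149 in whole flies). With a replicate block 0 entries were called in muscle and 2807 in whole flies, with 2 suffixed copies, and the RpS15Ab interaction had an adjusted p of 0.136 by limma. A crossed replicate block in whole flies called 3029 entries and 2 suffixed copies. With 2 libraries a group, the number of libraries rather than depth limits precision for the 70 abundant genes.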
